A study of Drosophila melanogaster with 4 samples.

Results

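The Beaten path proteins of Drosophila melanogaster are immunoglobulin superfamily proteins of the cell surface or the extracellular space. They are known from the wiring of the nervous system, where Beat-Ia, a secreted protein of motor axons, lets these axons leave their bundle at the muscles they innervate. Their partners are the Sidestep proteins, another immunoglobulin family: Beat-Ia binds Side, which muscles and other tissues on the route of the axon display, Beat-IIa and Beat-IIb bind Side-IV, the Beat-V proteins bind Side-VI, and Beat-VI binds Side-II. Wing imaginal discs are the larval epithelial sacs that give rise to the wing and the dorsal thorax, and few neurons lie in them at this stage.

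Levels of 10 Beaten path genes, beat-Ia, beat-Ib, beat-Ic, beat-IIa, beat-IIb, beat-IIIc, beat-IV, beat-Va, beat-Vb and beat-VI, were taken by name from a table of 17559 genes. These genes were chosen by a proposal made with their control and mutant values in view, so the difference between the groups is described for them and no p-value or call is read as a test of it. The table held 4 further Beaten path genes, beat-IIIa, beat-IIIb, beat-Vc and beat-VII, which gives 14 in all. The libraries came from wing discs of larvae in the third instar, 2 from the y w control and 2 from a Paip1 mutant. Which Paip1 allele was used, whether the mutant also carries the y and w mutations of the control, and whether the replicates of a group came from separate collections of larvae are not stated in the labels. Effects of strain and of Paip1 therefore cannot be told apart, and the spread behind each p-value is that between these libraries alone and may be technical.

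No unit is named for the values, and they were taken for TPM. TPM is a transcript abundance corrected for length and scaled to a fixed library total, so levels can be compared between genes. The listed values sum to 995750 and 996531 in control and to 919460 and 936038 in the mutant, so the listed totals differ between the groups. Read depth is unknown. Paip1, the gene named in the genotype, measured 112 and 121 TPM in control (replicates 1 and 2, the order kept for every pair of values) and 2.37 and 2.22 TPM in the mutant. Of 12 marker genes of the disc epithelium all passed the filter on low values, and their summed level was 1138 to 1173 TPM in control and 532 to 659 TPM in the mutant.

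beat-Vb dominated the family in the mutant. It was listed at 18.7 and 14.4 TPM in the control libraries and at 3093 and 2494 TPM in the mutant libraries. Both mutant libraries lay far above both controls, and the group means were 16.5 ± 3.07 and 2793 ± 423 TPM (mean ± SD, n = 2 libraries per group, as for all means given), a 169-fold difference. On the log2(TPM + 1) scale, which understates the change of low genes, the log2 fold change was 7.32 with a standard error of 0.18, and it lay between 7.14 and 7.50 when single libraries were omitted. This was the 11th largest of the 8605 genes tested, those that reached 1 TPM in 2 or more libraries. In the authors' deposited table the fold change of beat-Vb was 191, and the gene was marked as significant. The same mark stood on beat-IIb (0.318-fold) and on beat-IIa (13.6-fold) and beat-IIIa (21.8-fold), which were too low for the present fit. For the 10 chosen genes this mark too is a description. beat-Vb ranked 5215th and 5812th by TPM among all listed genes in the control libraries and 82nd and 99th in the mutant libraries.

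The other members were low in every library. Together these 9 genes summed to 13.3 and 13.7 TPM in control and to 5.53 and 8.49 TPM in the mutant. beat-Vb thus made up 58.4% and 51.3% of the summed level of the 10 genes in control and 99.8% and 99.7% in the mutant. The next highest gene, beat-IIIc, was at 6.18 and 6.42 TPM in control and at 2.42 and 4.72 TPM in the mutant. Its mutant values were both below the controls but differed from each other by more than the higher of them fell short of control. The log2 fold change was -0.72 with a standard error of 0.27.

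**Figure D1:**
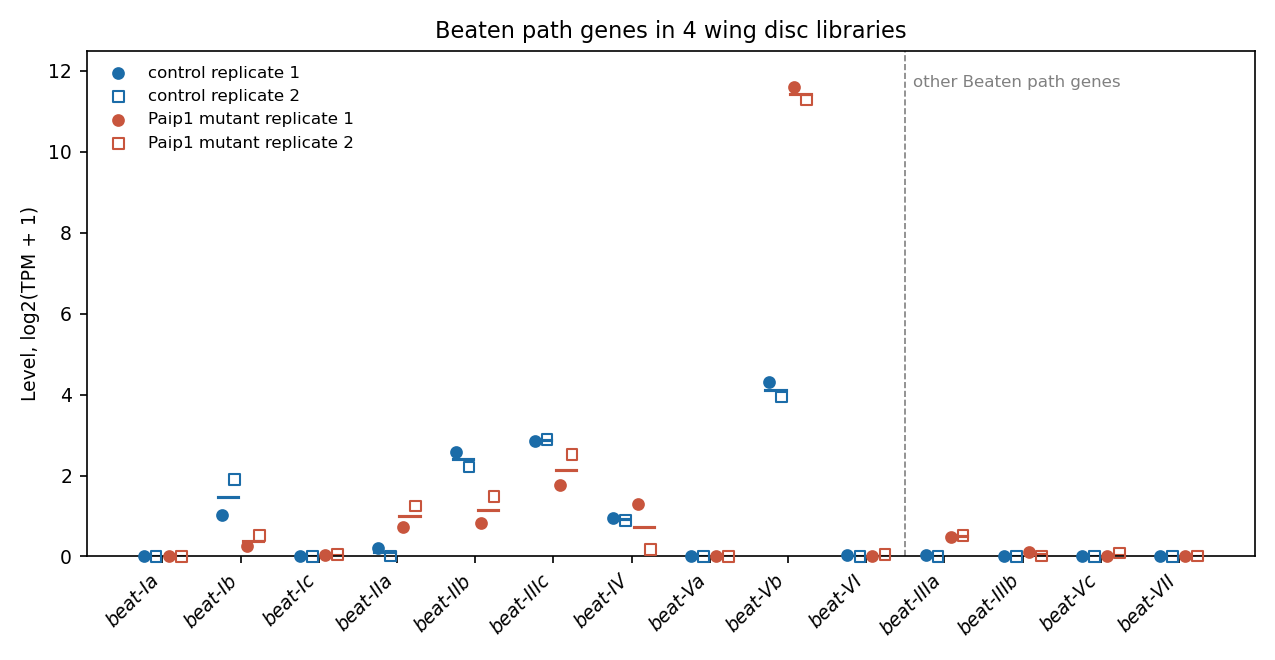
Level of the 10 Beaten path genes and of the 4 further family members (right of the dashed line) as log2(TPM + 1), with 1 point per library and a short bar at each group mean of that value. beat-Vb stands at 3093 and 2494 TPM in the mutant, while every other gene stays below 7 TPM in all 4 libraries.

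In the beat-II pair the genes differed in opposite directions. beat-IIb, whose product binds Side-IV, was at 5.01 and 3.64 TPM in control and at 0.76 and 1.78 TPM in the mutant. The groups did not overlap, and the log2 fold change was -1.26 with a standard error of 0.30. beat-IIa, which encodes the other partner of Side-IV, was at 0.15 and 0.01 TPM in control and at 0.67 and 1.37 TPM in the mutant, higher in both mutant libraries but with 1 library at 1 TPM, so that it did not enter the fit. The pair lies on chromosome 3R, where beat-IIb (17232253 to 17265049 in dm6) and beat-IIa (17320004 to 17366119), both on the minus strand, are 55.0 kb apart.

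The beat-I genes lie on chromosome 2L in the order beat-Ib, beat-Ic, beat-Ia, with gaps of 37.9 and 8.3 kb. beat-Ib was at 1.03 and 2.73 TPM in control and at 0.19 and 0.43 TPM in the mutant, with a log2 fold change of -1.08 and a standard error of 0.37. The mutant libraries were the lower ones, but the control libraries differed from each other by more than control replicate 1 differed from either mutant library. beat-Ic was listed at 0 in both control libraries and at 0.02 and 0.03 TPM in the mutant. beat-Ia, the gene of the secreted axon protein that names the family, was listed at 0 in all 4 libraries.

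beat-IV was at 0.92 and 0.85 TPM in control and at 1.47 and 0.13 TPM in the mutant, and the mutant libraries lay on both sides of the controls. beat-VI, the gene of the Side-II partner, was at 0.03 TPM in control replicate 1 and mutant replicate 2 and listed at 0 in the other libraries. beat-Va, listed at 0 throughout, lies 67.6 kb from beat-Vb on the opposite strand. Among the 4 remaining family members the highest value in any library was 0.44 TPM, for beat-IIIa, which was at 0.02 and 0 TPM in control and 0.40 and 0.44 TPM in the mutant. beat-Vc, 57.3 kb beyond beat-Va, was listed at 0 in 3 libraries and at 0.06 TPM in mutant replicate 2. An exact 0 in this table cannot be told from a failed estimate.

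In control discs the levels ran from beat-Vb over beat-IIIc and beat-IIb to beat-Ib, and the library values of neighbours in this order did not overlap. The means of beat-Ib (1.88 ± 1.20 TPM) and beat-IV (0.885 ± 0.0495 TPM) differed by less than the SD of beat-Ib. Among the members under 1 TPM in both control libraries, beat-IV and those below it, no order is read, since the depth is unknown. In the mutant beat-Vb was followed by beat-IIIc (3.57 ± 1.63 TPM), whose libraries lay above those of beat-IIb (1.27 ± 0.721 TPM). Below it, beat-IIb, beat-IIa (1.02 ± 0.495 TPM) and beat-IV (0.8 ± 0.948 TPM) overlapped one another, and beat-Ib (0.31 ± 0.17 TPM) overlapped beat-IV.

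Of the 10 genes 4 entered the fit over all genes, beat-Ib, beat-IIb, beat-IIIc and beat-Vb, and 6 were too low. beat-Ib entered it through the control libraries alone, since both mutant values were under 1 TPM. Over all genes tested 44.8% passed the threshold (limma, Benjamini-Hochberg adjusted p under 0.05), 15.6% as higher in the mutant and 29.1% as lower. In that fit 1 of the 4, beat-Vb, lay past the threshold on the higher side and 1, beat-IIb, on the lower side. The groups did not overlap for 6 of the 8 members listed above 0 in any library, while this held for 66.2% of all genes listed above 0. Because the choice of members used this contrast, these counts are a description and nothing is read from them. With single libraries omitted, the log2 fold change ranged from -1.59 to -0.93 for beat-IIb, from -1.52 to -0.64 for beat-Ib and from -1.09 to -0.35 for beat-IIIc.

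The locus of beat-Vb (chromosome 3R, 12916056 to 12934813 in dm6, plus strand, FBgn0038092) holds a long transposable element. Copia is a retrotransposon that moves through an RNA copy of itself. A copia element of 5145 bases (12920208 to 12925352) is annotated on the opposite strand in the intron that follows the second exon block, 1439 bases from the exon before it and 3513 bases from the exon after it. None of its bases lie in an annotated exon of beat-Vb. The 7 exon blocks of beat-Vb cover 1892 bases, the shortest sum among the 14 genes. Of the other family members, beat-Ib, beat-IIa, beat-IIIc, beat-IV and beat-IIIa also span an element of at least 1 kb, of the families H, F, H, Bari1 and opus, none of it in exons.

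**Figure D2:**
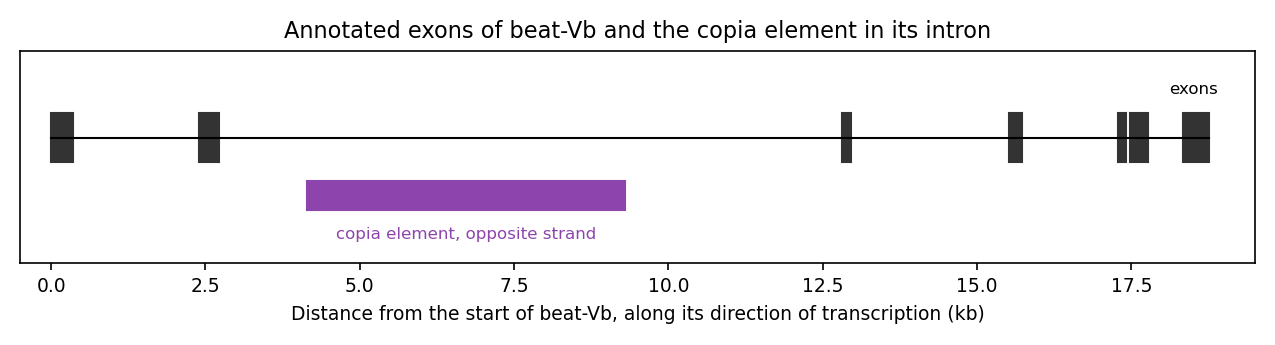
Exons of beat-Vb (black boxes) and the annotated copia element (purple box, drawn below the line) against the distance in kb from the start of the gene in the direction of transcription. The element of 5145 bases lies wholly within the long intron after the second exon block.

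Because the level of beat-Vb stood apart from its family, the genes that span a copia element of at least 5 kb were listed after its values had been seen. There were 17, beat-Vb among them, and in none did the element overlap an annotated exon. Besides beat-Vb 15 of them were tested, and 14 passed the threshold with a log2 fold change of 3 or more, which 1.65% of all genes tested did. These 14 had log2 fold changes from 4.05 to 8.26 and a median of 5.99, and with beat-Vb added it ranked 5th among 15. Their mean levels were 4.31 to 159 TPM in control and 1401 to 15299 TPM in the mutant. The element lay on the strand of the gene in 8 of the 15 and on the opposite strand in 7. The exceptions were Gprk2, a kinase gene at 32.8 and 31.2 TPM in control and 34.6 and 36.4 TPM in the mutant (log2 fold change 0.15, adjusted p = 0.308), and CG43954, which was too low to be tested. The part of the copia element in the values of beat-Vb was not tested.

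**Figure D3:**
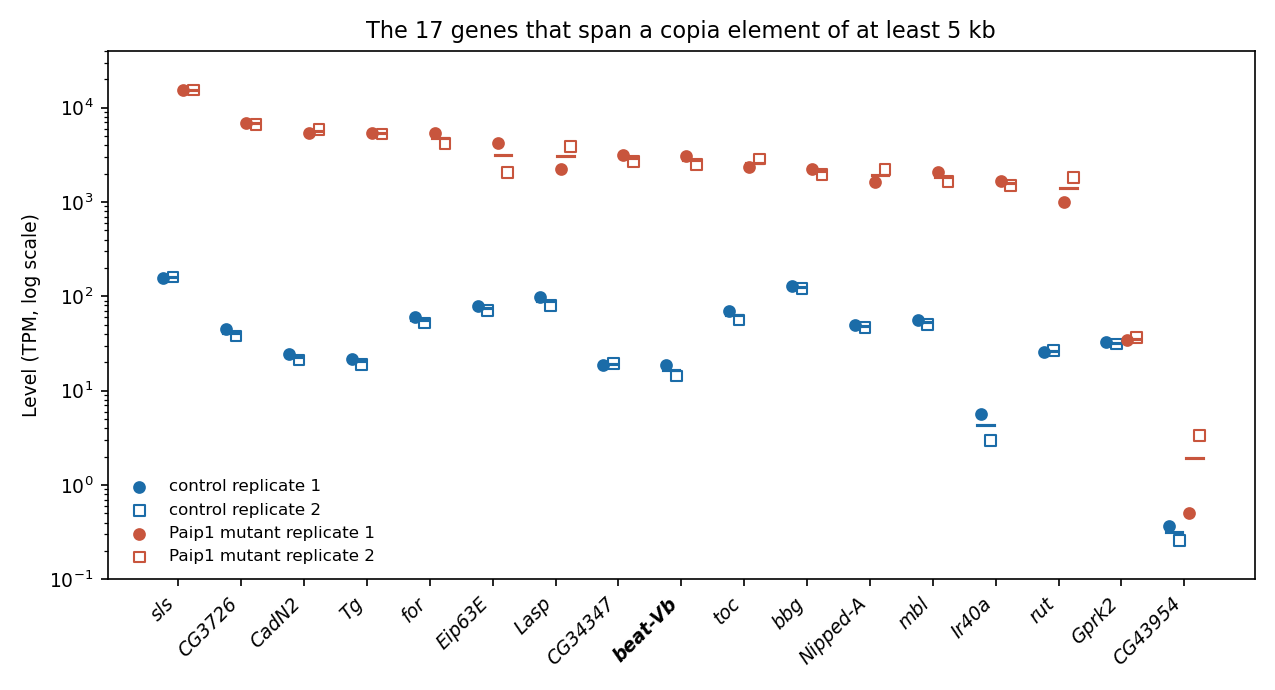
Level in TPM on a log scale of the 17 genes that span a copia element of at least 5 kb, with 1 point per library and a short bar at each group mean, ordered by the mutant mean. All genes but Gprk2 and CG43954 have both mutant libraries more than 8-fold above the controls, beat-Vb (bold) among them.

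The nearest protein-coding gene on each side of beat-Vb did not share its pattern. The nearest protein-coding gene before it, CG10909, was listed at 0 in 3 libraries and at 0.05 TPM in mutant replicate 2. The nearest one after it, grsm, was at 142 and 150 TPM in control and at 106 and 143 TPM in the mutant (log2 fold change -0.24, adjusted p = 0.275). Across the 4 libraries the 3 genes with the profile nearest to that of beat-Vb by Euclidean distance in log2(TPM + 1) were CG34347 at a distance of 0.42, WDY at 0.91 and Tg at 1.41. CG34347 and Tg are among the 17 genes that span a copia element. CG34347 was at 18.7 and 19.4 TPM in control and at 3110 and 2676 TPM in the mutant. The nearest profiles to that of beat-IIIc were CG5916 (0.25), PIG-A (0.27) and tpr (0.29).

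Around the other members, CG10126 rose from 5.79 and 5.40 TPM to 58.2 and 147.5 TPM (log2 fold change 3.83, adjusted p = 0.00299). By chromosome coordinate CG10126 is the nearest protein-coding gene after beat-Va (listed at 0), 7125 bases away. It lies between beat-Va and beat-Vb, farther from beat-Vb than CG10909. CG31262, next to beat-IIb, fell from 1.28 and 1.77 TPM to 0.22 and 0.32 TPM (log2 fold change -0.99, adjusted p = 0.0336). CG31262 entered the fit through the control libraries alone. The other neighbours of the 10 genes were under 1 TPM in every library except Brf, next to beat-IIa, at 35.9 to 38.2 TPM in control and 32.8 to 35.2 TPM in the mutant.

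The Sidestep genes, which encode the partners of the Beaten path proteins, also moved in both directions. All 3 that entered the fit passed the threshold, which 44.8% of all genes tested did, and 1, side-IV, still passed without control replicate 1 or control replicate 2. side, the partner of Beat-Ia, rose from 0.91 and 0.86 TPM to 4.97 and 9.93 TPM (log2 fold change 2.10, SE 0.32, adjusted p = 0.00743), while beat-Ia itself was listed at 0. side entered the fit through the mutant libraries alone, since both control values were under 1 TPM, so its call is a description. side-IV, the partner of the Beat-II proteins, fell from 9.67 and 8.66 TPM to 1.86 and 1.62 TPM (log2 fold change -1.89, SE 0.16, adjusted p = 0.00152). In control both libraries of side-IV lay above those of beat-IIb, and in the mutant the values of the pair overlapped. side-V, at the highest level of the family, rose from 36.8 and 36.0 TPM to 50.6 and 55.9 TPM (log2 difference 0.54 with an SE of 0.11, adjusted p = 0.0168).

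The Sidestep genes side-II, side-III, side-VI and side-VIII were close to 0. side-VI, whose product binds the Beat-V proteins, did not exceed 0.05 TPM in any library, also in the mutant libraries where beat-Vb was highest. side-II, the partner of Beat-VI, did not exceed 0.17 TPM, side-III 0.14 TPM and side-VIII 0.09 TPM. side-VII was at 0.11 and 0.16 TPM in control and at 0.85 and 1.14 TPM in the mutant and was not tested. The authors' deposited columns mark side, side-II, side-IV and side-VII as significant and side-V as not, so their marks differ from the calls given here. For side and side-V the adjusted p was 0.0506 and 0.12 without control replicate 1 and 0.0503 and 0.137 without control replicate 2.

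**Figure D4:**
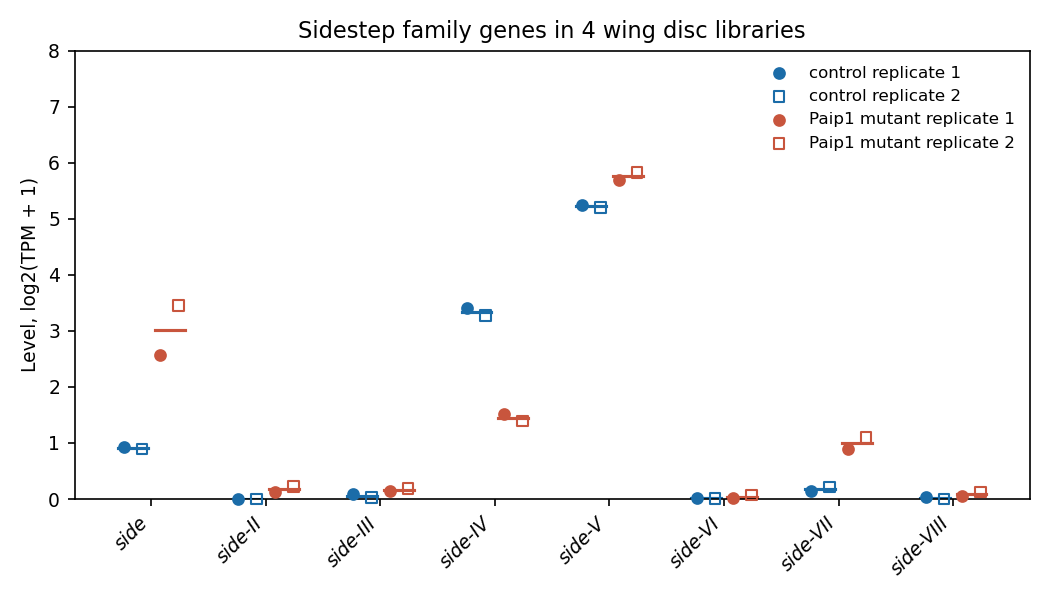
Level of the 8 Sidestep genes as log2(TPM + 1), with 1 point per library and a short bar at each group mean of that value. side and side-V are higher and side-IV is lower in both mutant libraries, and side-VI, the gene of the Beat-V partner, is near 0 throughout.

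Other wiring families give the setting. Their counts stand beside 15.6% called higher and 29.1% called lower over all genes tested. Of 32 dpr and DIP genes, which encode a further pair of immunoglobulin families that bind each other at synapses, 6 were tested, 3 rose and 1 fell, and the fall was lost when TPM were rescaled by median ratios or to a common sum. DIP-lambda rose from 4.91 ± 0.141 TPM in control to 78.6 ± 5.42 TPM in the mutant (log2 fold change 3.75, adjusted p = 7.62e-05) and dpr6 from 0.04 TPM in both control libraries to 9.43 ± 2.41 TPM (log2 difference 3.31, adjusted p = 0.000865). dpr6 and dpr17, which also rose, entered the fit through the mutant libraries alone, and dpr19, which fell, through the control libraries alone. Their calls are therefore a description. Among immunoglobulin receptor genes 27 were tested, of which 6 rose and 12 fell, with a median log2 fold change of -0.47, against -0.22 over all genes tested. Dscam4, of the Dscam adhesion family, fell from 7.21 ± 2.47 TPM in control to 0.155 ± 0.106 TPM in the mutant (log2 difference -2.80, adjusted p = 0.00225). Dscam4 entered the fit through the control libraries alone, and bdl and wrapper, which rose, through the mutant libraries alone. These calls too are a description. Among guidance genes outside the immunoglobulin families 20 were tested, of which 2 rose and 11 fell, with a median of -0.62. Con, which rose, entered the fit through the mutant libraries alone. Sema2b, a secreted semaphorin, fell from 93.5 ± 3.05 TPM in control to 30.04 ± 6.47 TPM in the mutant (log2 difference -1.62, adjusted p = 0.00249). Without control replicate 1, control replicate 2, mutant replicate 1 and mutant replicate 2 in turn, the genes called numbered 2, 2, 3 and 3 for dpr and DIP, 3, 6, 9 and 18 for the receptors, and 4, 4, 9 and 14 for the other guidance genes.

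**Figure D5:**
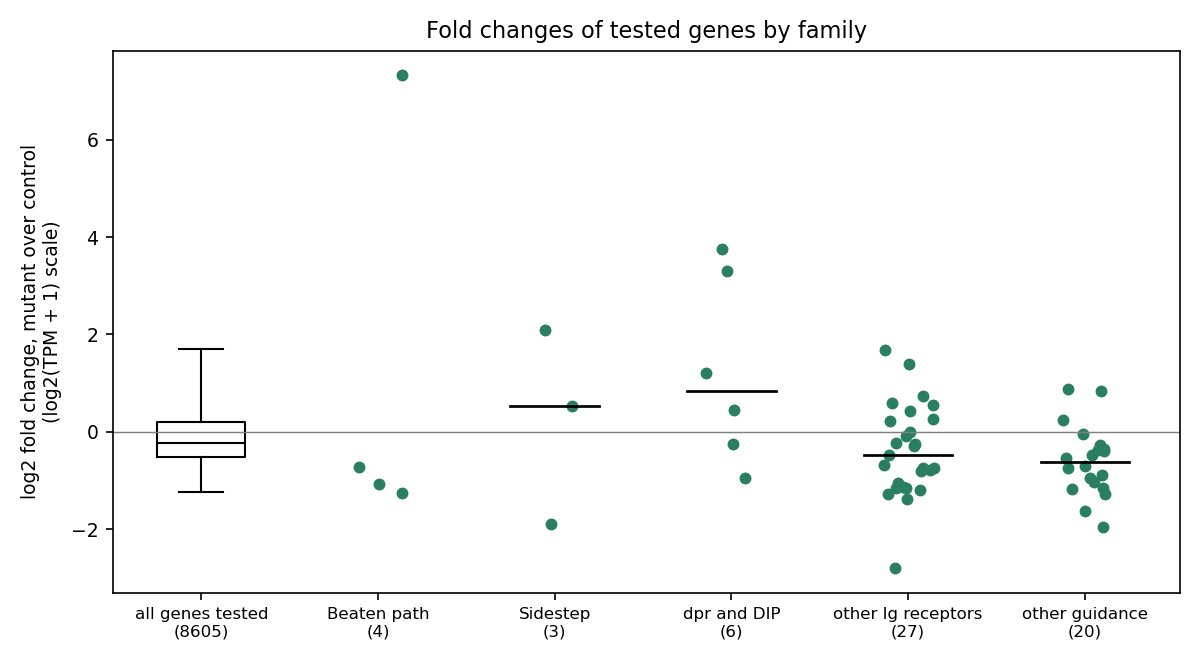
Log2 fold change of mutant over control on the log2(TPM + 1) scale for the tested genes of 5 families (points) beside all 8605 genes tested (box from the 25th to the 75th percentile with the median, whiskers to the 5th and 95th), with the number of genes in brackets and a bar at the median of each family except Beaten path. beat-Vb at 7.32 lies apart from the other 3 tested Beaten path genes, at -0.72 to -1.26.

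Markers of other cell types also differed between the groups. For scale, 15.6% of all genes tested passed the threshold as higher in the mutant and 29.1% as lower. In bulk tissue, fewer cells of a type and less RNA per cell cannot be told apart. Of 12 neuron markers 9 were too low to be tested, none above 1.74 TPM, and the list summed to 26.1 to 27.9 TPM in control and 28.6 to 41.9 TPM in the mutant. The calls among the other 3 were opposite: para, a sodium channel gene, rose from 8.91 and 10.5 TPM to 29.5 and 14.7 TPM (adjusted p = 0.0498), and elav, an RNA-binding protein gene of neurons, fell from 12.8 and 12.3 TPM to 7.24 and 9.06 TPM (adjusted p = 0.031). Neither call held without control replicate 1 (adjusted p = 0.197 and 0.166), control replicate 2 (0.148 and 0.149) or mutant replicate 1 (0.102 and 0.0947). Of 6 markers of the myoblasts that lie on the disc 5 fell, from a sum of 116 to 125 TPM to one of 44.6 to 61.1 TPM. Of 12 markers of the disc epithelium 11 fell. Muscle markers without sls, which spans a copia element, summed to 21.8 to 35.0 TPM in control and 167 to 241 TPM in the mutant, and all 10 tested rose. Of these, Mhc, Mlc1, bt and TpnC47D entered the fit through the mutant libraries alone, so their rise was favoured by the filter. The sums in control and mutant were 157 to 163 and 185 to 208 TPM for glia, 686 to 722 and 922 to 1065 TPM for trachea, 1.68 to 8.97 and 19.1 to 28.3 TPM for hemocytes, and 506 to 1539 and 39.9 to 306 TPM for the fat body. These sums hide mixed calls: of 4 tested glia markers 2 rose, moody and loco, and 1 fell, Gs2, and of 6 tested trachea markers 2 rose, serp and verm, and 1 fell, trh. The Gs2 call was lost when TPM were rescaled by median ratios (adjusted p = 0.071) or to a common sum (0.0547). Of 5 tested hemocyte markers 3 rose, Pxn, Hml and NimC1, and of 6 tested fat body markers 2 fell, Fbp1 and Fbp2. Hml and NimC1 entered the fit through the mutant libraries alone, so their rise was favoured by the filter. With no filter on low values neither was called (adjusted p = 0.081 and 0.0999). Each of the trachea, hemocyte and fat body calls was lost in at least 1 fit with a single library omitted. So were those of Gs2 and the myoblast markers twi and htl, while those of the myoblast marker Him and of moody and loco held. No marker of these lists was at 0 in all 4 libraries. Their part in the differences of the Beaten path and Sidestep genes was not tested.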

How the data were processed

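Per the labels, RNA was isolated with Trizol and read on an Illumina HiSeq instrument. The authors deposited 1 table with a value per gene and library. No unit is named in its header. The deposited values were taken for TPM, since they carry decimals and each library sums to between 91.95% and 99.65% of the TPM total. The group means in the table are the authors' deposited means of TPM. Per the file headers, further columns hold the authors' fold ratio between the groups, the log2 of that ratio, p-values before and after adjustment, and a mark of significance. The submitters' processing notes name FastQC, TopHat, RSEM and DESeq, and the build dm6, without versions or roles. The handling of repeat and intron reads, of strand and of filters is not given in the sources used here. TPM keeps no depth, so no counting interval was computed.

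IDs were matched to current symbols (17253 matched, 306 did not), and coordinates, exons and transposable elements came from Ensembl annotation 115 in dm6 coordinates. The test was two-sided, from limma 3.58.1 (R 4.3.3) with a mean-variance trend, on log2(TPM + 1) of the 8605 genes that reached 1 TPM in 2 or more libraries, with Benjamini-Hochberg adjustment and a threshold of 0.05. Residual degrees of freedom were 2 and prior degrees of freedom 3.27. The fit was also run on simulated data in which few genes changed, equally many up and down. Far more genes passed in these data, and more of them as lower, so that run does not measure the error rate here. Python 3.11.15, pandas 2.3.3, numpy 2.4.6 and matplotlib 3.10.9 made the tables and figures.

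The members and the gene lists were chosen with earlier results of these data known. Besides all Beaten path and Sidestep genes, the rule named, of each other list, the 3 genes with the smallest p past the threshold or else the 2 with the highest mean, the nearest protein-coding neighbours of each member, and the 3 nearest profiles of 2 members. Not every gene it named is given: values stand for 1 or 2 genes of the dpr and DIP, receptor, guidance and neuron lists, and marker lists are otherwise given by sums and counts. The listing of genes that span a copia element was added after the values were seen. Alternatives were other scalings, another pseudocount, other filters, a replicate block and each library left out. No library was identical to another.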

Additional observations from a re-analysis of the deposited data

How the results depend on the processing

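The log2 fold changes of the 4 tested Beaten path genes kept their sign in every setting tried, and 36 of the alternative values moved by less than the spread between replicates. Only beat-Ib with a pseudocount of 0.1 TPM moved by more (-2.19). The number of Beaten path genes past the threshold, a description since they were chosen on this contrast, was 2, and 1 with no filter on low values or when genes had to average 5 TPM. It ranged from 1 (without control replicate 1, control replicate 2 or mutant replicate 1) to 3 (without mutant replicate 2), against 1 to 3 for the Sidestep genes (3 with all libraries), 2 to 3 for dpr and DIP genes (4), 3 to 18 for immunoglobulin receptors (18), 4 to 14 for other guidance genes (13) and 1013 to 3273 for all genes (3852). With dpr and DIP genes, 9 passed with no filter on low values and 1 when genes had to average 5 TPM, since the filter decides how many of these low genes are tested. Rescaling TPM by median ratios moved the median log2 fold change of all genes from -0.22 to 0.02 and the share of higher calls from 34.9% to 58.3%, and made the dpr and DIP calls 3 higher and 0 lower. beat-Vb was then at 7.56, beat-IIb at -1.09, beat-Ib at -0.97 and beat-IIIc at -0.52.

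The replicate numbers are shared by the groups, but nothing in the labels pairs them, and the deviations of same-numbered libraries correlated at 0.065 across genes, which are not independent. With the replicate block 4246 genes passed, 3 Beaten path genes among them. With 2 libraries per group and no read depth, the precision of values under 1 TPM is unknown.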

Other observations

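The 17 genes that span a copia element of at least 5 kb made up 0.09% and 0.081% of the listed TPM in control replicates 1 and 2 and 6.73% and 6.44% in mutant replicates 1 and 2. Of 21 genes that passed the threshold with a log2 fold change of 3 or more and were at 1000 TPM or more in both mutant libraries, 14 belonged to them, beat-Vb included. Of 180 tested genes that span an element of at least 5 kb of another family and no such copia element, 15 passed with a log2 fold change of 3 or more, which is 8.33%, against 1.65% of all genes tested, and their median log2 fold change was -0.01. These lists were made after the values had been seen, and the share of each gene's value that comes from element sequence was not tested.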
